A study of Mus musculus with 10 samples.

Results

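Glucose is held in the cell by hexokinases, committed to breakdown by phosphofructokinases and released from that commitment by fructose bisphosphatases, and the genes that encode these enzymes are described here in whole mouse embryos that lack the zinc-finger transcription factor Rreb1. The 10 genes were Hk1 and Hk2 (hexokinases), Pfkl, Pfkm and Pfkp (phosphofructokinases), Fbp1 and Fbp2 (fructose bisphosphatases), and Pfkfb2, Pfkfb3 and Pfkfb4 (bifunctional enzymes of fructose-2,6-bisphosphate), out of 20974 genes in the deposited table. They were chosen by their genotype contrast in these same embryos, so their differences between genotypes are a description, with no p-value given, and how many pass the threshold for all genes is fixed by that choice and supports nothing. The Rreb1-/- group held 5 single embryos at embryonic day (E) 7.5, replicates 2 to 6, and the Rreb1+/+ group held 5, also replicates 2 to 6. All came from intercrosses of Rreb1+/- mice labelled as CD1, the mutant allele being a deletion in exon 6 made in zygotes with CRISPR and carried in every tissue. The paper describes its mice as outbred to CD1 but kept on a mixed background that also held other strains. The parietal endoderm had been dissected off for genotyping, so the libraries hold the rest of the embryo as a mixture of its cell types. Which founder the embryos descend from is not given in the sources used here.

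Hexokinase adds a phosphate to glucose as it enters the cell. Phosphofructokinase adds another to fructose-6-phosphate, the step that commits the sugar to glycolysis, and fructose bisphosphatase takes that phosphate off again on the route that makes glucose. The PFKFB enzymes make and break fructose-2,6-bisphosphate, a signal molecule that activates phosphofructokinase and inhibits fructose bisphosphatase, and mouse embryos after implantation are known for a high rate of glycolysis.

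The expression of each gene is given as a normalized count, the number of reads counted on the gene divided by a size factor for its embryo. Between 31467767 and 35786876 reads were counted per embryo. Rreb1 itself had 3988 to 5715 normalized counts in Rreb1-/- embryos and 2365 to 2924 in Rreb1+/+ embryos, a count over the whole gene that does not check a deletion of part of it. Mutant replicate 2 had 58036 counts of Xist, the RNA of the inactive X chromosome, and a sum of 2.1 for Uty, Kdm5d, Eif2s3y and Ddx3y, which are Y-linked, whereas mutant replicates 3 to 6 had 39.3 to 61.3 counts of Xist and 5849 to 9172 of the Y-linked sum. All 5 Rreb1+/+ embryos had 45657 to 68009 counts of Xist and a Y-linked sum of 0 to 3.8. Sex and genotype thus coincided in all embryos but mutant replicate 2, whose values are given beside the main results. The comparison used limma on log2(normalized count + 1) for every gene whose mean reached 15 in either genotype, and a gene was called at a Benjamini-Hochberg adjusted p under 0.05. Of 15603 genes, 4.26% were called, 1.15% as lower and 3.11% as higher in Rreb1-/- embryos, and 6.7% had values that did not overlap between genotypes. With the replicate number as a block, which treats embryos of the same number as a pair, 356 rather than 179 genes were called lower and 716 rather than 486 higher. Whether they are pairs is not given in the labels.

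All 10 genes were in the table and 9 passed the filter on low values, Fbp1 being left out. Of these 9, Fbp2 was called lower and Pfkp and Hk1 higher in Rreb1-/- embryos, and in those 3 genes the genotypes did not overlap. The other 6 were not called and their log2 fold changes lay between −0.33 and 0.13. Because the genes were selected on this contrast, these counts say nothing beyond the selection. The median log2 fold change was −0.09 over the 9 genes and −0.02 over all genes tested.

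**Figure D1:**
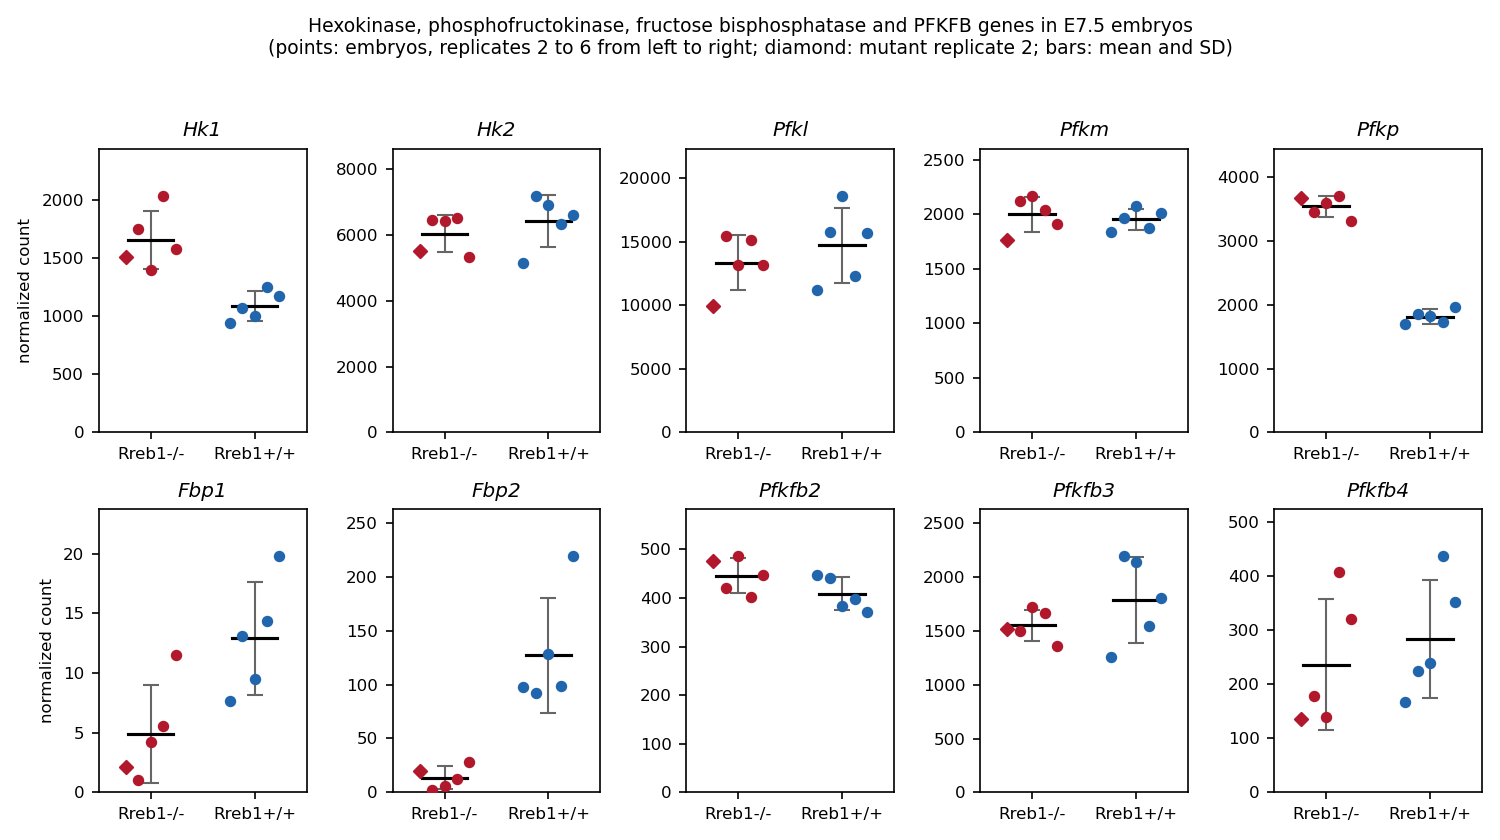
Normalized counts (y axes, from 0) of the 10 genes in single E7.5 embryos, Rreb1-/- at the left and Rreb1+/+ at the right of each panel, with the mean and SD (n = 5 each) and mutant replicate 2 as a diamond. The Rreb1-/- embryos lie above all Rreb1+/+ embryos for Pfkp and Hk1 and below all of them for Fbp2.

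Of the 10 genes, Fbp1 had the lowest mean count in both genotypes and Fbp2 the largest log2 fold change in size. Fbp2, known as the muscle isozyme, had 20.1, 2.08, 6.37, 12.1 and 28.2 normalized counts in Rreb1-/- replicates 2 to 6. It had 97.9, 92.4, 128, 98.9 and 219 in Rreb1+/+ replicates 2 to 6. The highest mutant embryo was therefore below the lowest Rreb1+/+ embryo, and the means were 13.8 ± 10.5 in Rreb1-/- and 127 ± 53 in Rreb1+/+ embryos (mean ± SD, n = 5), a ratio of 0.108. The log2 fold change was −3.42 with a standard error of 0.54, and it rests on 2 to 27 reads per mutant embryo against 92 to 232 reads per Rreb1+/+ embryo. Mutant replicate 2, the one with Xist and without Y-linked reads, had 20.1 counts and so lay with the other mutants. The log2 fold change was −3.77 to −2.96 with each embryo left out in turn, −2.49 with the Y-linked sum as a term and −2.92 in replicates 5 and 6 alone. Fbp2 was not called with the Y-linked sum as a term, nor in replicates 5 and 6 alone.

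Fbp1, known as the isozyme of liver and kidney, had fewer counts still. Its values were 2.12, 1.04, 4.25, 5.58 and 11.5 in Rreb1-/- replicates 2 to 6, against 7.68, 13.1, 9.55, 14.4 and 19.8 in Rreb1+/+ replicates 2 to 6. Mutant replicate 6 exceeded Rreb1+/+ replicates 2 and 4, so the genotypes overlapped. These values come from 1 to 11 reads in mutant embryos and 8 to 21 reads in Rreb1+/+ embryos, and the log2 fold change of −1.45 (standard error 0.47) is from the fit without the filter. The stretches of 50 bases in annotated Fbp1 and Fbp2 transcripts were searched for in the transcripts of all other genes, and none was shared.

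Fbp1 and Fbp2 are neighbours on chromosome 13, on the same strand (GRCm38, chr13:62864753-62888282 and chr13:62836877-62858422, minus strand), with 6330 bases between them. Rreb1 lies on the same chromosome at chr13:37778400-37952005, which is 24.9 Mb from both, and Pfkp at chr13:6579768-6648777 is 31.1 Mb from it on the other side. Of 562 genes tested on chromosome 13, 41 were called (7.3%, beside 4.26% of all genes), 10 lower and 31 higher in Rreb1-/- embryos. A part of linked sequence in these differences was not tested.

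The 250 bases before the annotated start of Fbp2, Fbp1, Pfkp and Hk1 are shown because these genes had the largest differences, in RefSeq sequence of GRCm38.p6, 5′ to 3′ on the strand of the gene. For Hk1 the windows of both listed starts are shown. Capitals mark CCACCC or its reverse complement GGGTGG, letters that C-rich sites described for RREB1 contain, and CACGTG, the E-box letters read by factors such as Mlxipl and Myc.
Fbp2, chr13:62858401-62858650, minus strand: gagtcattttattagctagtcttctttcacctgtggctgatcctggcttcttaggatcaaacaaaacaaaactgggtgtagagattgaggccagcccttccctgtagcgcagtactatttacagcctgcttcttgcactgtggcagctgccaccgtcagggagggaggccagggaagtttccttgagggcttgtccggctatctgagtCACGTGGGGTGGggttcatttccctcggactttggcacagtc
Fbp1, chr13:62888283-62888532, minus strand: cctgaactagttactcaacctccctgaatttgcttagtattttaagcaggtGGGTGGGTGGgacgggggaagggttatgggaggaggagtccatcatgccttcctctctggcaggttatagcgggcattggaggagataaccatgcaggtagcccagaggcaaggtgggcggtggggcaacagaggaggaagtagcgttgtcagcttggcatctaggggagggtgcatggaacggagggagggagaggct
Pfkp, chr13:6648772-6649021, minus strand: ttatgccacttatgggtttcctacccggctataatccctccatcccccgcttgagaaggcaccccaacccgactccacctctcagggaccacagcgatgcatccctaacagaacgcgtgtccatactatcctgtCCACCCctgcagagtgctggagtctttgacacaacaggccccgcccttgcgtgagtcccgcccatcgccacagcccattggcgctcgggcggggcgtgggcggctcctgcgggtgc
Hk1, upstream start, chr10:62379909-62380158, minus strand: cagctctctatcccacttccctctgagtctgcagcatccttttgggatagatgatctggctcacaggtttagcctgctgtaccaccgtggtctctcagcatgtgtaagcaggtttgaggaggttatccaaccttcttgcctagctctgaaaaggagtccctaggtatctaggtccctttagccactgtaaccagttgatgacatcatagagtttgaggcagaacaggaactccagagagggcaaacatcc
Hk1, downstream start, chr10:62340422-62340671, minus strand: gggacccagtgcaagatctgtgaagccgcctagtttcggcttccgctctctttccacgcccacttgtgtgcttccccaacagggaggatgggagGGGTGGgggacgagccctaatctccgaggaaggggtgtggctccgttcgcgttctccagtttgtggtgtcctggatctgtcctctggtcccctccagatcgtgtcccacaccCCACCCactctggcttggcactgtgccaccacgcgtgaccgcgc

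In Fbp2 the letters CACGTG begin 42 bases before the start and GGGTGG follows directly, 36 bases before it, the runs not overlapping. The upstream Hk1 window held none of these letters. Of the 17 windows of the 10 genes, 10 windows from 7 genes held CCACCC or GGGTGG (Fbp1, Fbp2, Hk1, Pfkfb3, Pfkfb4, Pfkm and Pfkp). The Pfkm windows that start at chr15:98108221 and chr15:98108306 overlap and hold the same GGGTGG, which is counted in both. The same letters were found in 28.1% of all 32851 windows of this length, searched on both strands with overlapping matches counted once per window. This share is per window, and none was computed per gene to set beside the 7 genes. The longer ACCACCC (or GGGTGGT) was in 3.92% of all windows and in none of the 17 windows of these genes. CACGTG was in 6.02% of all windows and in 4 of the 17, before a start of Fbp2, Pfkfb2, Pfkfb3 and Pfkm. A match describes the letters only, and binding at these sites was not measured.

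Among the phosphofructokinases, Pfkp was higher in Rreb1-/- embryos, and Pfkl and Pfkm overlapped between genotypes. Pfkp, known as the platelet isozyme, had 3666, 3445, 3594, 3699 and 3306 normalized counts in Rreb1-/- replicates 2 to 6. It had 1690, 1858, 1827, 1729 and 1971 in Rreb1+/+ replicates 2 to 6. Both groups were tight, with a coefficient of variation of 4.64% in mutants and 6.11% in Rreb1+/+ embryos, and the lowest mutant was far above the highest Rreb1+/+ embryo. The means were 3542 ± 164 in Rreb1-/- and 1815 ± 111 in Rreb1+/+ embryos (mean ± SD, n = 5), a ratio of 1.95 and a log2 fold change of 0.96 with a standard error of 0.06. Mutant replicate 2 had 3666 counts, beside 3306 to 3699 in all mutants. Over the 22 alternatives tried, its log2 fold change ran from 0.92 to 1.03, which was the value with the Y-linked sum as a term. Its exons share 748 bases with Pitrm1 on the opposite strand, a gene with 6541 to 8397 counts in Rreb1-/- and 6313 to 7822 in Rreb1+/+ embryos.

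Pfkl, the liver isozyme, was the most abundant phosphofructokinase. It had 9934, 15435, 13127, 15108 and 13130 normalized counts in Rreb1-/- replicates 2 to 6, against 11221, 15774, 18562, 12325 and 15672 in Rreb1+/+ replicates 2 to 6. Replicate 2 was the lowest embryo in both genotypes, and the log2 fold change of −0.13 was smaller than its standard error of 0.15. Pfkm, the muscle isozyme, had 1768 to 2165 counts in Rreb1-/- and 1836 to 2072 in Rreb1+/+ embryos, with a log2 fold change of 0.03 and a standard error of 0.07. For Pfkm, 8.83% of the 50-base stretches of its transcripts also occur in Gm26513, which overlaps it on the same strand and had 4.17 to 12.7 counts in Rreb1-/- and 5.73 to 14.1 in Rreb1+/+ embryos.

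Among the hexokinases, Hk1 was higher in Rreb1-/- embryos and Hk2 overlapped. Hk1, the broadly expressed hexokinase, had 1508, 1754, 1395, 2033 and 1580 normalized counts in Rreb1-/- replicates 2 to 6. It had 942, 1074, 1000.6, 1253 and 1176 in Rreb1+/+ replicates 2 to 6. The gap between the lowest mutant and the highest Rreb1+/+ embryo was narrow, and mutant replicate 2 lay inside the range of the other mutants. The means were 1654 ± 249 in Rreb1-/- and 1089 ± 127 in Rreb1+/+ embryos (mean ± SD, n = 5), a ratio of 1.52 and a log2 fold change of 0.6 with a standard error of 0.11. The log2 fold change was 0.49 with the Y-linked sum as a term and 0.56 in replicates 5 and 6 alone, and Hk1 was called in neither of these fits. Hk2, the hexokinase of muscle and many growing tissues, had 5332 to 6510 counts in Rreb1-/- and 5144 to 7179 in Rreb1+/+ embryos, with a log2 fold change of −0.09 and a standard error of 0.1.

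Pfkfb2, Pfkfb3 and Pfkfb4 overlapped between genotypes. Pfkfb3, the isozyme with the strongest bias towards making fructose-2,6-bisphosphate, had 1514, 1498, 1718, 1670 and 1364 normalized counts in Rreb1-/- replicates 2 to 6. In Rreb1+/+ replicates 2 to 6 it had 1255, 2194, 2144, 1542 and 1804. The Rreb1+/+ embryos were more spread out (SD 399 against 142 in mutants), and the log2 fold change was −0.18 with a standard error of 0.14. Pfkfb2, the heart isozyme, had 402 to 486 counts in Rreb1-/- and 372 to 448 in Rreb1+/+ embryos. For Pfkfb2, 15.9% of its 50-base stretches also occur in transcripts of other genes, mainly an annotated gene that shares 1262 exon bases with it, which leaves its level uncertain.

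Pfkfb4, a hypoxia-responsive isozyme also known from testis, split by replicate number, and its genotypes overlapped. It had 135, 178, 140, 406 and 321 normalized counts in Rreb1-/- replicates 2 to 6, against 166, 225, 239, 436 and 352 in Rreb1+/+ replicates 2 to 6. Replicates 5 and 6 of both genotypes lay at 321 to 436 counts and replicates 2 to 4 at 135 to 239, without overlap. Between genotypes the log2 fold change was −0.33 with a standard error of 0.35. What the replicate number stands for is not given in the labels.

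**Figure D2:**
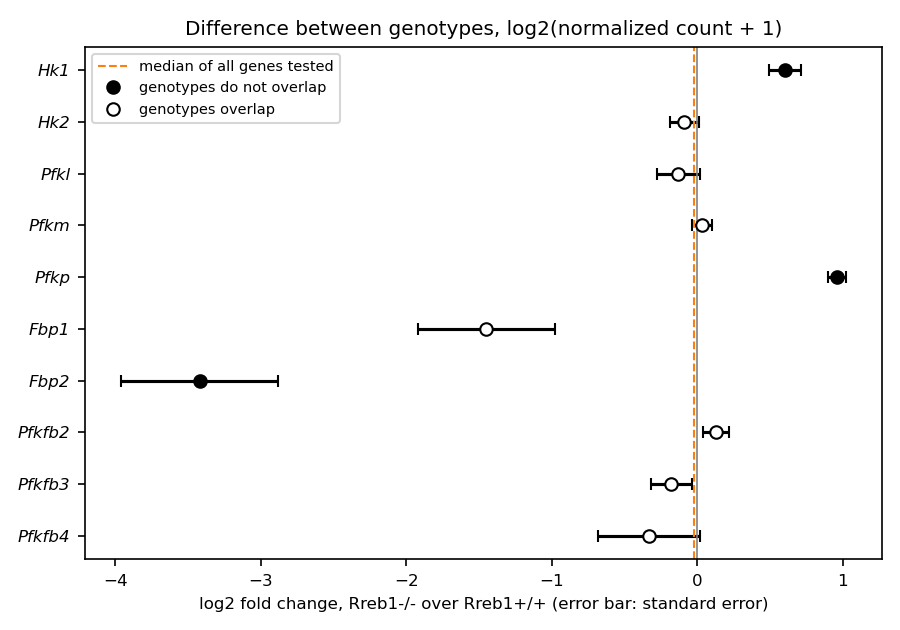
Log2 fold changes of the 10 genes (x axis, Rreb1-/- over Rreb1+/+, on log2(normalized count + 1)), with standard errors from limma. Fbp2 at −3.42, Pfkp at 0.96 and Hk1 at 0.6 are the filled points, whose genotypes do not overlap, and Fbp1 is from the fit without the filter on low values.

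To compare genes with each other, each normalized count was divided by the length of the gene's annotated exons in kb. By the mean per kb, the order in Rreb1-/- embryos was Pfkl (2000), Hk2 (1013), Pfkm (599), Pfkp (264), Pfkfb3 (205), Hk1 (194), Pfkfb2 (61.5), Pfkfb4 (48.4), Fbp2 (9.37) and Fbp1 (2.87). In Rreb1+/+ embryos it was Pfkl (2204), Hk2 (1078), Pfkm (585), Pfkfb3 (236), Pfkp (135), Hk1 (128), Fbp2 (86.5), Pfkfb4 (58.2), Pfkfb2 (56.3) and Fbp1 (7.57). Pfkp took place 4 in mutants and place 5 in Rreb1+/+ embryos, and Fbp2 place 9 in mutants and place 7 in Rreb1+/+ embryos. Neighbours whose embryos overlapped in Rreb1-/- were Pfkfb3 and Hk1, Pfkfb2 and Pfkfb4, and Fbp2 and Fbp1. In Rreb1+/+ embryos Pfkp and Hk1 overlapped, as did Hk1 and Fbp2, Fbp2 and Pfkfb4, and Pfkfb4 and Pfkfb2, while the 3 most abundant genes kept their order without overlap in both genotypes.

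**Figure D3:**
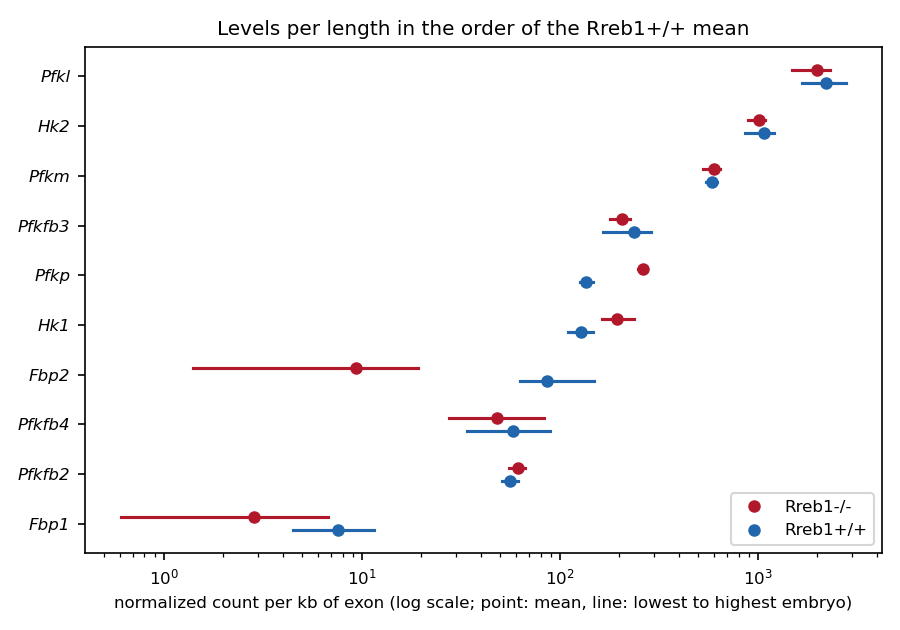
Normalized count per kb of exon (x axis, log scale) of the 10 genes, Rreb1-/- drawn above Rreb1+/+, with the mean as a point and a line from the lowest to the highest embryo. Pfkp has 264 per kb in Rreb1-/- and 135 in Rreb1+/+ embryos, and Fbp2 9.37 in Rreb1-/- and 86.5 in Rreb1+/+ embryos.

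Sums per kb were taken over the members alone, so the hexokinase sum is that of Hk1 and Hk2, and the PFKFB sum that of Pfkfb2, Pfkfb3 and Pfkfb4 without Pfkfb1. These sums overlapped between genotypes, except for the fructose bisphosphatases. For phosphofructokinases the sum was 2863 ± 365 per kb in Rreb1-/- and 2924 ± 476 in Rreb1+/+ embryos, and for hexokinases 1207 ± 112 in Rreb1-/- and 1206 ± 138 in Rreb1+/+ embryos (mean ± SD, n = 5). For the 3 PFKFB genes it was 315 ± 27.7 in Rreb1-/- and 351 ± 53.4 in Rreb1+/+ embryos. The fructose bisphosphatase sum was 2.03 to 25.9 per kb in Rreb1-/- and 70.5 to 160 in Rreb1+/+ embryos.

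The make-up of the phosphofructokinase and hexokinase sums, which are of RNA, nevertheless differed. These shares come from the same values on which Pfkp and Hk1 were chosen, so their direction is fixed by that choice. Pfkp made up 11.9%, 8.02%, 9.3%, 8.76% and 8.86% of the phosphofructokinase sum in Rreb1-/- replicates 2 to 6, against 5.35%, 4.49%, 3.85%, 5.09% and 4.75% in Rreb1+/+ replicates 2 to 6. The means were 9.38% ± 1.51 in Rreb1-/- and 4.71% ± 0.578 in Rreb1+/+ embryos (mean ± SD, n = 5), without overlap, and Pfkl held 69.6% ± 3.01 in Rreb1-/- and 75% ± 2.92 in Rreb1+/+ embryos. The annotated exons of Pfkp are long (13.4 kb in all), and with no division by length its difference was 9.02 rather than 4.67 percentage points. Hk1 made up 16.1% ± 1.79 of the hexokinase sum in Rreb1-/- and 10.6% ± 1.28 in Rreb1+/+ embryos, again without overlap (13.2% to 17.9% in Rreb1-/-, 9.18% to 12.2% in Rreb1+/+). By the longest transcript in place of all exons, the Hk1 difference was 8.06 rather than 5.42 percentage points.

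Shares within the other families varied more between embryos. Fbp2 made up 91.7% of the fructose bisphosphatase sum in mutant replicate 2, 63.5% to 74% in mutant replicates 3 to 6 and 88.8% to 93.9% in Rreb1+/+ embryos. Mutant replicate 2 thus lay inside the Rreb1+/+ range for this share though not for the level, and the mutant shares rest on 1 to 11 reads of Fbp1. Of the summed Pfkfb2, Pfkfb3 and Pfkfb4, Pfkfb3 held 65.3% ± 5.01 in Rreb1-/- and 66.9% ± 6.42 in Rreb1+/+ embryos, and Pfkfb4 8.9% to 23.2% in Rreb1-/- and 11.6% to 25.7% in Rreb1+/+ embryos.

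**Figure D4:**
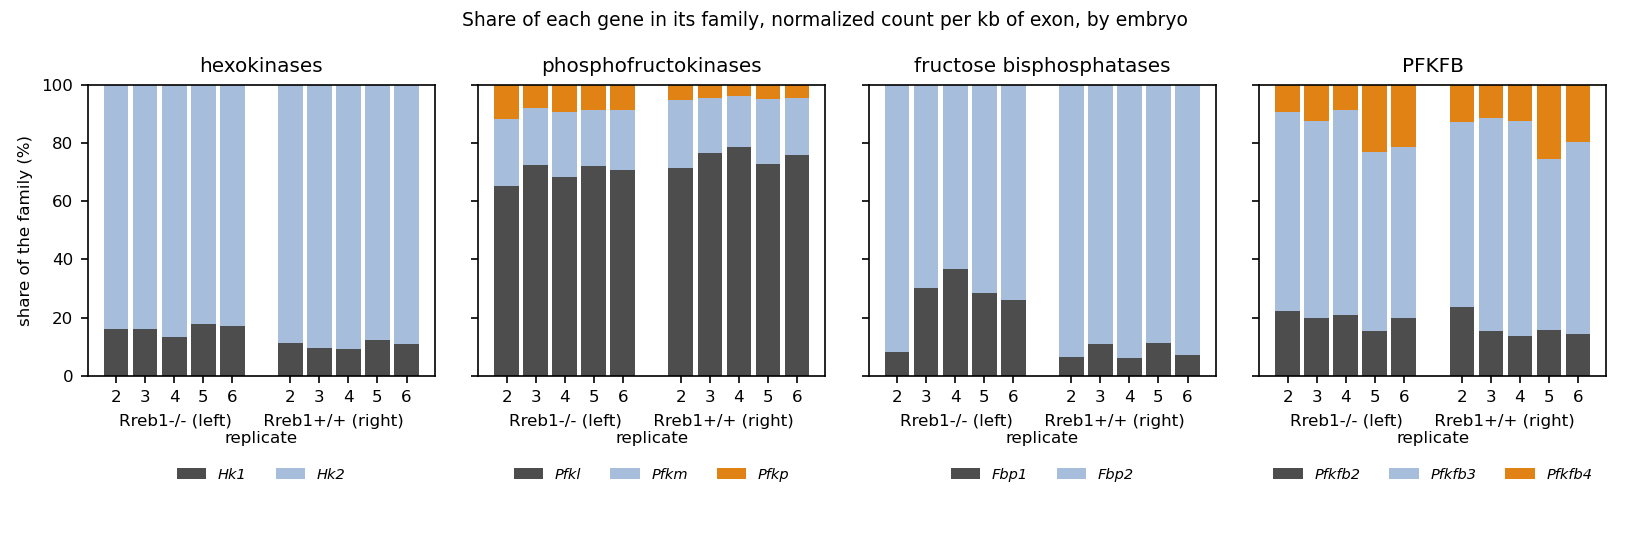
Share of each gene in the sum of the members of its family, Pfkfb1 and other hexokinases left out (y axis, percent of the summed normalized count per kb of exon) in each embryo, 1 bar per embryo, Rreb1-/- replicates 2 to 6 at the left and Rreb1+/+ replicates 2 to 6 at the right of each panel. The Pfkp part is 8.02% to 11.9% in Rreb1-/- and 3.85% to 5.35% in Rreb1+/+ embryos, and the Hk1 part 13.2% to 17.9% in Rreb1-/- and 9.18% to 12.2% in Rreb1+/+ embryos. The shares come from the values by which these genes were chosen.

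The genes whose pattern was most like that of Fbp2 over the 10 embryos were Cd59a (Pearson r 0.97), Scml4 (0.964), Fga (0.962), Fgg (0.955) and 4931406C07Rik (0.954), on log2 values. Fga and Fgg encode chains of fibrinogen, a plasma protein, and Cd59a an inhibitor of complement. After the genotype means were removed, r with Fbp2 was 0.769 to 0.875 for these 5 genes over the 10 embryos. They were picked by r over the same embryos, which includes this part, so high values here are partly fixed by the choice. Those most like Pfkp were Zmat4 (0.991), Lrrc49 (0.989), Kif5c (0.988), Rab39b (0.986) and Zfp287 (0.985). Kif5c encodes a kinesin motor chain and Rab39b a small GTPase, both known from neurons. After the genotype means were removed, r with Pfkp was 0.823 for Zmat4 and 0.087 to 0.512 for the other 4. The embryos share a library preparation and a scaling, and no test was made of these r.

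Visceral endoderm, the outer layer that makes plasma proteins before the liver forms, was followed through 11 markers, all of them detected. Afp (log2 fold change −1.32, standard error 0.26) and Apoa4 (−1.21, standard error 0.28) were called lower and the other 9 were not called, and the median of the 11 was −0.22. The summed level of the list was 219594 to 314798 in Rreb1-/- and 295500 to 329561 in Rreb1+/+ embryos, a ratio of 0.853. Apob (means of 108874 in Rreb1-/- and 125345 in Rreb1+/+ embryos) and Cubn (79761 and 92485) made up most of it. The ratio therefore mainly describes these genes. The part of visceral endoderm in the Fbp2 difference was not tested, and in whole embryos fewer cells of a type and less RNA per cell cannot be told apart. The paper reports no significant change of Gata6, Gata4, Sox17 and Hnf4a, transcription factors of this layer. From this it proposes that transcription in visceral endoderm was not reduced as a whole. In mutants its Afp reporter was weak or absent in the proximal extraembryonic part of the layer and present in the embryonic part. The paper also reports that mutants are small and developmentally delayed from this stage on, so stage and genotype cannot be told apart either. Of the markers of cardiac and skeletal muscle, where Fbp2 is best known, 7 of 9 were in the table, 5 were tested and none was called by limma, edgeR or DESeq2 (0 in limma at an unadjusted p under 0.05), with sums of 192 to 1343 in Rreb1-/- and 396 to 1198 in Rreb1+/+ embryos. Primitive blood markers summed to 349 to 3024 in Rreb1-/- and 1059 to 12401 in Rreb1+/+ embryos, with none called by limma, edgeR or DESeq2 and 2 of 6 lower in limma at an unadjusted p under 0.05. With the replicate block, Hbb-bh1, a globin chain (log2 fold change −3.29, limma adjusted p = 0.00342), and Gata1, a transcription factor of red cells (−0.59, adjusted p = 0.0352), were called lower. The markers of epiblast, extraembryonic ectoderm and trophoblast, and parietal endoderm were called by none of these tools and had 0 genes at an unadjusted p under 0.05. Those of primitive streak and nascent mesoderm, extraembryonic mesoderm and maternal decidua had 1 gene each at an unadjusted p under 0.05 in limma and none called by limma or edgeR, with Lhx1 of the streak and Pgr of the decidua called higher by DESeq2 and Pgr also with the replicate block (log2 fold change 0.57, limma adjusted p = 0.0206).

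The rest of sugar metabolism was examined through 10 lists of 108 genes, none of them among the 10 genes above. Of 104 tested, 4 were called lower (Pck1, Mlxipl, Slc2a2 and Rpia) and 4 higher (Pdk4, Gckr, Car12 and Ldhb) in Rreb1-/- embryos. That is 7.69% beside 4.26% of all genes, and the median log2 fold change was −0.05 beside −0.02. With the replicate block 4 were called lower and 6 higher. Pck1, Mlxipl, Gckr and Pdk4 are also in the study's own list of changed genes, made from these embryos. The 10 lists were chosen with earlier results of these data known, so neither the calls nor the 7.69% are independent evidence.

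Of 5 other gluconeogenic enzymes tested, 1 was called. Pck1, the cytosolic phosphoenolpyruvate carboxykinase that opens the route to glucose, fell to 13.8, 11.4, 9.56, 7.43 and 8.34 normalized counts in Rreb1-/- replicates 2 to 6, against 44.1, 36.1, 33.4, 28.8 and 31.1 in Rreb1+/+ replicates 2 to 6. All mutants were below all Rreb1+/+ embryos (limma adjusted p = 0.0016, log2 fold change −1.70 with a standard error of 0.23). The Rreb1-/- mean of Pck1, 10.1, lay under the filter on low values, which the gene passed only through its Rreb1+/+ mean of 34.7. With that filter set at 50, Pck1 was not in the fit. G6pc3, the most abundant of this list and a glucose-6-phosphatase found in most tissues, averaged 974 ± 42.1 in Rreb1-/- and 984 ± 75.4 in Rreb1+/+ embryos (SD, 5 embryos each).

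Of 18 regulators of glycolytic and gluconeogenic genes, 1 was called. Mlxipl, the carbohydrate-response factor also called ChREBP, fell to 125, 164, 150, 114 and 152 normalized counts in Rreb1-/- replicates 2 to 6, against 286, 375, 385, 237 and 257 in Rreb1+/+ replicates 2 to 6, without overlap (limma adjusted p = 0.00334, log2 fold change −1.11 with a standard error of 0.17). Hif1a, the oxygen-regulated factor and the most abundant of the list, had 9022 ± 792 in Rreb1-/- and 9208 ± 960 in Rreb1+/+ embryos.

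Of 8 genes of hexose uptake and other hexokinases, 2 were called. Slc2a2, the GLUT2 transporter of liver and yolk sac, fell to 3109 to 5181 counts in Rreb1-/- embryos, against 5215 to 6395 in Rreb1+/+ embryos (limma adjusted p = 0.0397, log2 fold change −0.55 with a standard error of 0.13). Gckr, the inhibitor of glucokinase, rose to 70.9 ± 17.8 counts in Rreb1-/-, against 33.4 ± 6.72 in Rreb1+/+ embryos (limma adjusted p = 0.0218, log2 fold change 1.05 with a standard error of 0.22). Slc2a3, the GLUT3 transporter, was the most abundant, with 98418 to 154279 counts in Rreb1-/- and 129219 to 149780 in Rreb1+/+ embryos, and was not called (log2 fold change −0.17).

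The 17 other glycolytic enzymes had a median log2 fold change of 0.01 and 1 call, and 2 with the replicate block. That block added Aldoc, a fructose-bisphosphate aldolase best known from brain, as higher in Rreb1-/- embryos (log2 fold change 0.63, limma adjusted p = 0.0302, against 0.216 without the block). Ldhb, the lactate dehydrogenase subunit of heart, rose to 3122 ± 430 counts in Rreb1-/-, against 2187 ± 371 in Rreb1+/+ embryos (limma adjusted p = 0.0414, log2 fold change 0.52 with a standard error of 0.13), with overlapping embryos. Pkm, the pyruvate kinase and the most abundant of the list, had 104547 ± 13051 counts in Rreb1-/- and 107233 ± 10744 in Rreb1+/+ embryos. Of 13 genes of pyruvate fate 1 was called, Pdk4, a kinase that shuts pyruvate dehydrogenase. It rose to 84.8, 52, 63.7, 40 and 52.2 counts in Rreb1-/- replicates 2 to 6, against 23, 29.1, 22.9, 20.2 and 19.8 in Rreb1+/+ replicates 2 to 6 (limma adjusted p = 0.00786, log2 fold change 1.28 with a standard error of 0.22). The lactate transporter Slc16a1, most abundant there, had a log2 fold change of 0.05.

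Of 8 genes of the pentose phosphate pathway 1 was called, Rpia, the ribose-5-phosphate isomerase, which fell to 353 to 491 counts in Rreb1-/-, against 482 to 657 in Rreb1+/+ embryos (limma adjusted p = 0.0491, log2 fold change −0.46 with a standard error of 0.11). Tkt, the transketolase and most abundant there, had a log2 fold change of −0.23 and was not called. Of 14 hypoxia response genes outside glycolysis 1 was called, Car12, a membrane carbonic anhydrase, which rose to 580 to 971 counts in Rreb1-/-, against 242 to 487 in Rreb1+/+ embryos (limma adjusted p = 0.0212, log2 fold change 1.02 with a standard error of 0.21). P4ha1, a collagen prolyl hydroxylase and the most abundant of that list, had a log2 fold change of 0.21.

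No gene was called by limma or edgeR among 14 of glycogen metabolism, 5 of fructose and polyol metabolism or 2 other enzymes of fructose-2,6-bisphosphate. At an unadjusted p under 0.05, limma had 4, 3 and 2 genes of these lists, and DESeq2 called 1 of each (Pygb, Akr1b3 and Pfkfb1). Pygb was also called after quantile normalization, and with the replicate block Pgm1, a phosphoglucomutase, was called higher (log2 fold change 0.27, limma adjusted p = 0.0303, against 0.151 without the block). Of the 2 fructose-2,6-bisphosphate enzymes, Pfkfb1 had 397 to 459 counts in Rreb1-/- and 483 to 582 in Rreb1+/+ embryos, without overlap (log2 fold change −0.27, limma adjusted p = 0.113). Their most abundant genes were Pygb, a glycogen phosphorylase, with a log2 fold change of 0.22, Akr1b3, the aldose reductase, with 0.23, and Tigar, which breaks down fructose-2,6-bisphosphate, with −0.25.

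The calls differed in how far they rested on single embryos and on a term for the Y-linked sum. Pck1, Mlxipl and Pdk4 were called with each embryo left out, at adjusted p of at most 0.0249. Car12 lost its call without mutant replicate 2 or Rreb1+/+ replicate 3 or 5 (adjusted p up to 0.0598), and Gckr without mutant replicate 2, 3 or 4 or Rreb1+/+ replicate 2, 5 or 6 (up to 0.0601). Slc2a2 kept its call only without mutant replicate 2 or 6, Ldhb only without mutant replicate 6 or Rreb1+/+ replicate 2, and Rpia only without mutant replicate 6 or Rreb1+/+ replicate 3, their adjusted p reaching 0.101, 0.104 and 0.126. Slc2a2 was also not called by edgeR or after quantile normalization, nor Rpia with a pseudocount of 5 or without the filter. With the Y-linked sum as a term Pdk4 alone of these 8 genes was called, and all 8 kept their direction. Mutant replicate 2 had 13.8 counts of Pck1, 125 of Mlxipl and 84.8 of Pdk4, on the mutant side of every Rreb1+/+ embryo for each.

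**Figure D5:**
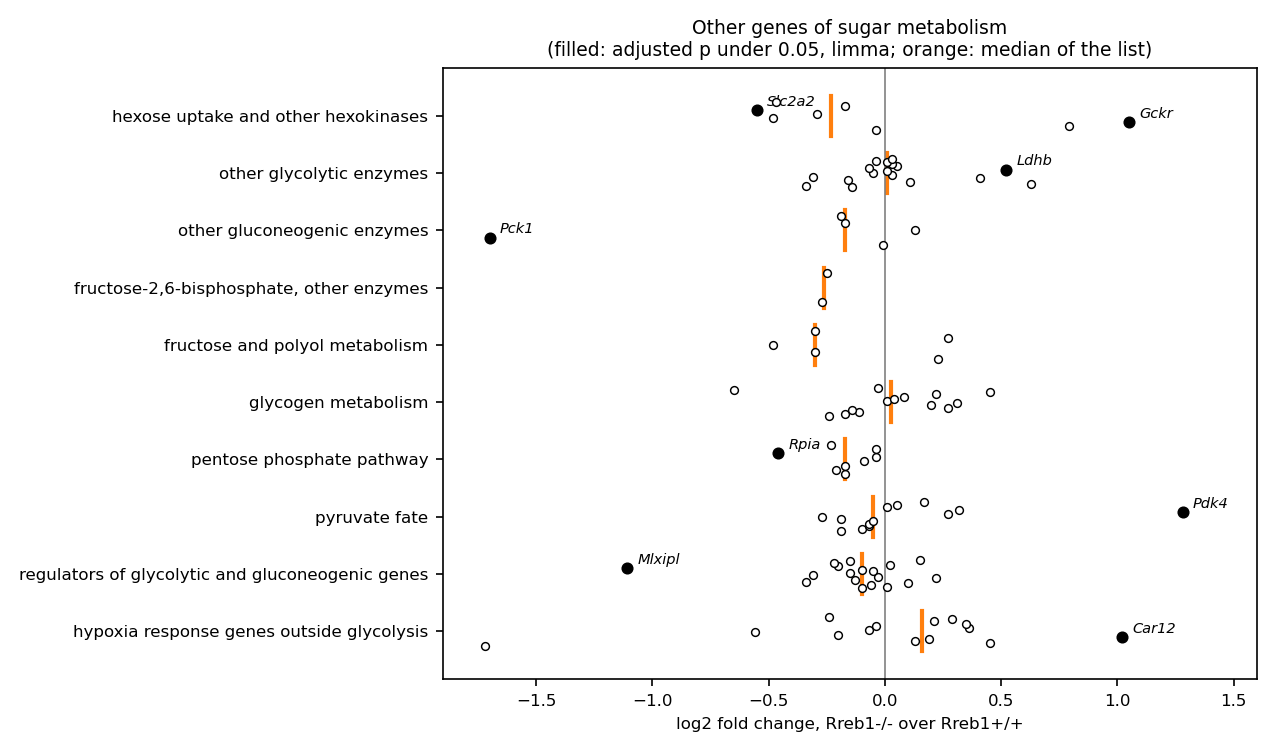
Log2 fold changes (x axis, Rreb1-/- over Rreb1+/+) of the 104 other genes tested, 1 row per list, with called genes filled and named and the median of each list as an orange line. The 4 genes called lower run from −1.70 (Pck1) to −0.46 (Rpia) and the 4 called higher from 0.52 (Ldhb) to 1.28 (Pdk4).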

How the data were processed

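RNA-sequencing of 10 single E7.5 embryos was analysed, 5 Rreb1-/- and 5 Rreb1+/+. As the authors describe, polyadenylated RNA was prepared with a stranded kit, read as pairs of 50 bases, aligned with STAR, processed with Picard, counted with HTSeq and scaled with DESeq. The deposited signal of a gene is therefore a count divided by 1 size factor per embryo. The build, the gene models and the use of strand in counting were not given in the sources used here. Gene identifiers were matched to GENCODE M21 (GRCm38) for 20884 of 20974 genes to obtain positions. In each embryo 100% of values came to whole reads once divided by the smallest step (tolerance 0.1 read), and the reads recovered in this way gave the depth, 31467767 to 35786876 per embryo. Counting error grows as reads become few, as for Fbp1 and Fbp2.

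Genotypes were compared with limma 3.58.1 (trend) in R 4.3.3 on log2(normalized count + 1) for the 15603 genes whose mean reached 15 in either genotype, with Benjamini-Hochberg adjustment. No covariate was used. edgeR 4.0.16 (quasi-likelihood) and DESeq2 1.42.0 were run on the recovered reads as alternatives, beside other pseudocounts (0.5 and 5), filters (none and 50), TMM factors, quantile normalization, a replicate block, the Y-linked sum as a term, each embryo left out, and replicates 2 to 4 or 5 and 6 alone. The fit was tested on simulated data. Embryos of the same replicate number deviated together from their genotype means (r 0.253 to 0.459 in 5 pairs). However, 4 pairs of unlike numbers had r of 0.362 to 0.492 (mutant 6 with Rreb1+/+ 5, 5 with 6, 4 with 3 and 3 with 4). The main fit did not pair embryos, and the replicate block alone treated equal numbers as pairs. Exon lengths were unions of annotated exons. Named genes were the 10 members, the called genes of each list (at most 4) with its most abundant gene, the 5 genes most like Fbp2 and Pfkp, and the sex check. The members and lists were chosen with earlier results of these data known. Replicates were separate embryos.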

Additional observations from a re-analysis of the deposited data

Results flagged for a closer look

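In groups of 5, an embryo was marked when its gap to the nearest embryo exceeded 0.71 of the range of the group, which chance alone gives in about 1 group in 20, and 5 of 78 groups had one. Rreb1+/+ replicate 6 had 219 normalized counts of Fbp2, against 128 in the next embryo of its genotype. Rreb1+/+ replicate 2 had a Pfkfb2 share of 23.6% of the Pfkfb2, Pfkfb3 and Pfkfb4 sum, against 15.7% in the next. Rreb1+/+ replicate 5 had 149780 counts of Slc2a3, against 133485, and mutant replicate 6 had 1046 counts of G6pc3, against 966. Mutant replicate 2 had 58036 counts of Xist, against 61.3 in the next mutant.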

How the results depend on the processing

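Over the 22 alternatives the log2 fold changes of Fbp2, Pfkp and Hk1 ran from −3.77 to −2.49, from 0.92 to 1.03 and from 0.49 to 0.66, directions that the choice of these genes fixed. Fbp2 and Hk1 lost their call with the Y-linked sum as a term and in replicates 5 and 6 alone. Pfkl (0.02 in replicates 5 and 6 alone) and Pfkm changed sign, neither being called. With the Y-linked sum as a term the log2 fold changes of Pfkl, Pfkm and Pfkfb4 were −0.56, −0.15 and −1.01. That fit called 24 genes lower and 83 higher in Rreb1-/- embryos, against 179 and 486, and of the sugar metabolism lists 0 lower and 1 higher, against 4 and 4. Replicates 5 and 6 alone gave 21 lower and 83 higher, with 0 and 0 in the lists, and replicates 2 to 4 alone 2 higher in the lists. DESeq2 called 423 lower and 790 higher, with 7 higher in the lists. With the replicate block, which treats embryos of the same number as a pair, 356 genes were called lower. It added calls for Aldoc, Pgm1, Hbb-bh1, Gata1 and Pgr, with 6 higher in the sugar metabolism lists. It changed no other call among the members or those lists. Leaving out 1 embryo gave 99 to 207 genes lower and 342 to 435 higher, and in the lists 2 to 4 lower and 1 to 4 higher. Without division by length the share differences were 9.02 percentage points for Pfkp and −8.93 for Pfkl, and by the longest transcript 8.06 for Hk1. The cause of these shifts was not tested, except that fits on fewer embryos have fewer samples.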

Other observations

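Some pairs of members varied together among embryos of 1 genotype. After the genotype means were removed, the log2 values of Hk2 and Pfkfb3 had a Pearson r of 0.884 over the 10 embryos, those of Pfkl and Pfkm 0.835, those of Hk1 and Pfkfb4 0.826, and those of Pfkl and Hk2 0.778. Over all pairs of the 9 members tested, r ran from −0.762 to 0.884, with values near 0 such as 0.019 for Pfkfb3 and Pfkfb4. Pfkfb2 had a negative r with each of the 8 other members tested, from −0.762 with Hk1 to −0.052 with Fbp2. Fbp2 had r of −0.5 to 0.337 with the other members. These are descriptions over embryos that share a library preparation and 1 scaling factor per embryo, and whose replicates 2 to 4 stood apart from 5 and 6 in Pfkfb4, and no p is given for them.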
